A study of Xenopus tropicalis with 15 samples.

Results

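Ultraviolet (UV) irradiation of the fertilised egg was used to ventralise Xenopus tropicalis embryos, and the poly(A) transcriptomes of UV-treated gastrulae were compared with those of untreated gastrulae. The comparison used 10 of the 15 libraries of the series, 5 from UV-treated and 5 from untreated embryos. The members of the comparison were the expressed genes, defined as those with at least 10 counts in 5 or more of these 10 libraries. This filter kept 13299 of the 28206 genes in the table. All embryos were wild type, of an out-bred Nigerian background, and grew at 25 °C to gastrula stage NF 11 to 11.5. UV-treated embryos had received 2 min of irradiation, aimed at the vegetal pole, within 30 min of fertilisation, while untreated embryos had received none. Each library was made from a pool of 10 whole embryos, and the 5 replicates came from independent experiments in which only clutches with a highly penetrant phenotype were kept. A library is therefore an average over pooled embryos, and embryos that responded differently within a pool cannot be separated.

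In the fertilised amphibian egg, the cortex rotates against the deep cytoplasm and carries dorsal determinants away from the vegetal pole. These determinants stabilise β-catenin on the future dorsal side, which leads to formation of the Spemann organiser at gastrulation. The organiser secretes antagonists of BMP, Wnt and Nodal ligands, such as Chordin, Noggin, Follistatin and Dickkopf, and tissue shielded from BMP signalling takes on a neural fate. UV light applied to the vegetal pole prevents cortical rotation, and strongly affected embryos lack dorsal axial structures and the neural plate.

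Total counts ranged from 11002771 to 18455126 in untreated and from 11890416 to 18254396 in UV-treated libraries. Levels are given as counts per 1000000 counts (CPM), from the effective size of each library. Genes of all germ layers were present in each untreated library. In these, krt, an epidermal keratin, was at 1182 to 3397 CPM and sox17a, an endodermal transcription factor, at 316 to 512 CPM. The mesodermal gene t was at 619 to 835 CPM in untreated embryos. Libraries of a group were not equally alike. UV-treated libraries 4 and 5 (UV4 and UV5) lay closest, with a root mean square log2 difference of 0.355 over genes, against 0.560 to 1.23 for every other pair within a group. Their counts differed by more than sampling noise, with a chi-square per degree of freedom of 4.61, against 13.6 to 134 for the other pairs, and they were not treated as 1 library deposited more than once. That does not show that UV4 and UV5 are independent samples, which was not tested, and with their counts summed into 1 library 5 genes were called in place of 87. Untreated libraries 4 and 5 lay farthest apart, at 1.23. For example, actc1, a muscle actin gene, was at 58.9, 152, 46.9, 7.48 and 306 CPM in untreated 1 to 5, lowest in untreated 4 and highest in untreated 5. The part of these 2 libraries in the results was not tested separately from the leave-one-out fits given below.

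UV-treated embryos had less RNA of a number of organiser and early neural genes, 14 of 34 and 5 of 29 expressed members of the lists described below, and fewer genes rose than fell. In the edgeR quasi-likelihood fit, 87 genes changed at a false discovery rate (FDR) of at most 5%, or 0.654% of the genes tested, of which 66 fell (0.496%) and 21 rose (0.158%). Of these, 51 fell and 10 rose by at least 2-fold, or 0.383% and 0.0752% of the genes tested. The largest decreases were those of fezf2, which had few counts in UV-treated libraries, of hesx1, at 22.1-fold, and of dkkx, at 20.4-fold, and the largest increase was that of atp6v1b1, at 11.3-fold. The study applied a stricter threshold (2-fold or more, FDR 1% or less) to DESeq2 results. In the edgeR fit it was passed by 0 genes (0.0%), although 1719 genes (12.9%) had an unadjusted p under 0.05. The DESeq2 Wald test, run here on the same counts, placed 117 lower and 33 higher genes past that threshold. These are not the counts that the study reported from its own DESeq2 run. The lowest FDR in the edgeR fit was 0.0161, and the words rose and fell are used below for genes at an FDR of at most 5%. All adjusted p-values given below come from that edgeR fit, with Benjamini-Hochberg adjustment over the 13299 genes.

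**Figure D1:**
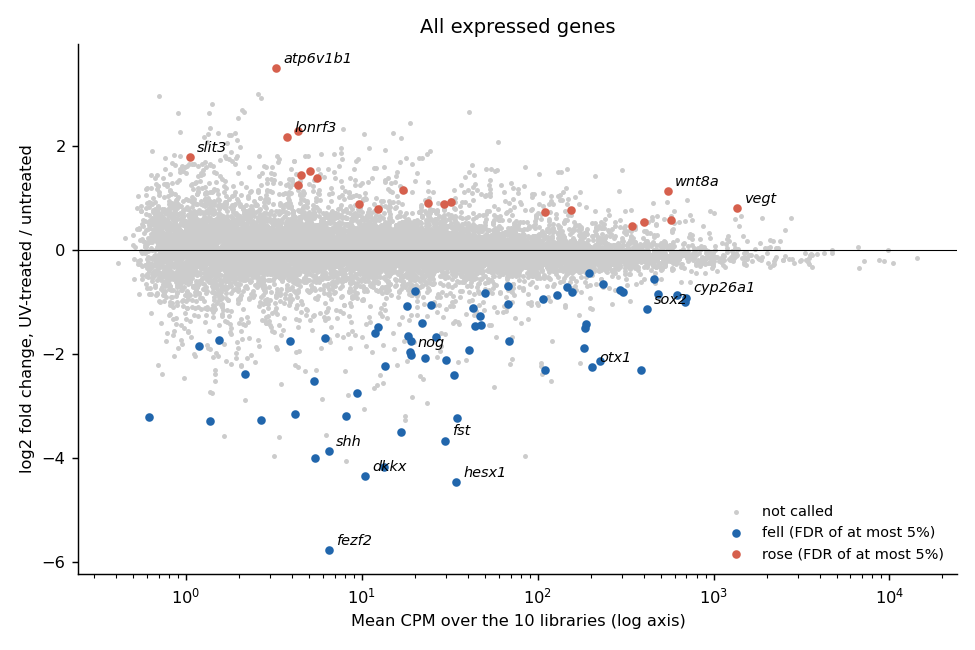
Log2 fold change of UV-treated over untreated embryos (vertical axis) against mean CPM over the 10 libraries (horizontal log axis) for the 13299 expressed genes. Blue points are the 66 genes that fell and red points the 21 that rose at an FDR of at most 5%, and the decreases reach -5.77 (fezf2) while the increases reach 3.5 (atp6v1b1).

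These counts changed strongly when single libraries were left out. Without untreated 4, 387 genes fell and 170 rose, of which 42 and 6 passed the stricter threshold. Without UV3, 92 fell and 42 rose, with 33 and 1 past the stricter threshold. Without UV1, UV2 or untreated 1, in contrast, no gene was called at an FDR of 5%, although 1381, 1498 and 1364 genes had an unadjusted p under 0.05. The lowest FDR was 0.06, 0.0536 and 0.0607, respectively, just past the cutoff. Whether the loss came from those libraries or from the smaller number of libraries in the fit was not tested. Each call named below is therefore lost in those 3 fits. The counts called without each of the remaining libraries lay between 6 (without UV5) and 65 (without untreated 5). None of the 49 genes under the naming rule that rose or fell changed sign in any alternative fit. In all of these genes except ripply2.2 the groups did not overlap, so these fits could hardly have changed a sign.

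Of the gene lists, the 2 of organiser genes together held the most members that fell. Some of these members, such as fzd8, foxd4l1.1 and hesx1, are also genes of anterior or neural ectoderm. The division from the early neural list therefore depends on how genes were assigned. Of 39 genes in lists of organiser transcription factors and of secreted antagonists and signals, 34 were expressed. Of these, 14 fell (41.2%, against 0.496% of all genes tested) and none rose. The median log2 fold change of these 34 genes was -1.75, beside -0.01 over all genes tested. In 24 of the 34, every UV-treated library lay below every untreated library, which held for 2.2% of all genes tested. As the lists were chosen with earlier results of these data known, such counts describe the lists and are not a test. No expressed member had passed the filter through the untreated libraries alone. Of the other 5 genes, sia2, nodal3.1, nodal3.2 and grem1 had too few counts and nodal3.5 was not matched by name. In whole embryos, fewer cells expressing a gene and less of its RNA per cell cannot be told apart.

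Among the transcription factors, 6 of 17 fell (35.3%, against 0.496% of all genes tested). hesx1, a homeobox gene of the anterior endomesoderm and later the anterior neural plate (scaffold 4 of assembly v7.1, 137521327 to 137524383, minus strand), had 0.95, 2.21, 4.95, 3.95 and 2.61 CPM in UV1 to UV5. Untreated 1 to 5 had 63.7, 58.5, 39.3, 17.6 and 150.1 CPM. Every UV-treated library was thus below the lowest untreated library, untreated 4, and hesx1 fell by 22.1-fold (log2 -4.47 ± 0.60 SE, adjusted p = 0.0168). hes7.1, a repressor of the hairy and enhancer of split family, had 1.76, 2.13, 7.27, 0.883 and 1.18 CPM against 31.3, 38, 33.7, 18.7 and 31.7 CPM (log2 -3.51 ± 0.52, adjusted p = 0.0202). The groups did not overlap, with UV3 the highest UV-treated library and untreated 4 the lowest untreated one.

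Otx genes encode homeodomain factors of the head, and of these crx and otx1 fell. crx was abundant at 603, 617, 647, 683 and 670.1 CPM in untreated embryos and was at 77.6, 153, 303, 66.6 and 48.4 CPM in UV1 to UV5 (log2 -2.31 ± 0.43, adjusted p = 0.0404). The untreated libraries differed little among themselves, whereas UV3 kept several times as much crx as UV5. otx1 had 63.9, 75, 148, 39 and 27.2 CPM against 355, 338, 337, 238 and 420.1 CPM (log2 -2.26, adjusted p = 0.0312). Of otx2, the UV-treated libraries had 30.6, 49.4, 80.8, 9.19 and 6.31 CPM and the untreated libraries 181 to 243 CPM. The groups were well apart, with UV3 far above UV4 and UV5, and otx2 was not called (log2 -2.52 ± 0.57, adjusted p = 0.083).

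gsc encodes Goosecoid, the classical organiser homeodomain protein. Its level was 12.8, 21.9, 39.4, 2.53 and 2.19 CPM in UV1 to UV5 and 70, 59.3, 87.8, 215 and 56.6 CPM in untreated 1 to 5. No UV-treated library reached the untreated range, yet UV3 stood near it and UV4 and UV5 far below, and gsc was not called (log2 -2.63 ± 0.73, adjusted p = 0.156). lhx1, another organiser homeobox gene, was also lower in all UV-treated libraries, at 34.4 to 107 against 124 to 146 CPM (adjusted p = 0.11). The forkhead genes foxd4l1.1, which keeps neural ectoderm immature, and foxa4, of the notochord and floor plate, both fell. foxd4l1.1 had 69, 119, 165, 57.1 and 72 CPM against 251 to 289 CPM (log2 -1.51, adjusted p = 0.0299), and its reads may be shared with its paralog foxd4l1.2. foxa4 had 231, 217, 274, 179.9 and 187 CPM against 328 to 414 CPM, the smallest decrease of the 6 (log2 -0.77, adjusted p = 0.0221). Groups overlapped for not, a notochord homeobox gene, at 141 to 313 against 247 to 299 CPM (adjusted p = 0.463), and for sia1, a direct target of maternal β-catenin, which was nearly absent from both groups at 0.294 to 1.42 against 0.064 to 3.21 CPM. hhex, a homeobox gene of anterior endoderm, did not overlap, at 5 to 31.2 against 37.2 to 72 CPM, but was not called (adjusted p = 0.232).

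Among the secreted antagonists and signals, a list that also holds the receptor gene fzd8, 8 of 17 fell (47.1%, against 0.496% of all genes tested). fst encodes Follistatin, which binds activin and BMP ligands (scaffold 1, 21787677 to 21798564, minus strand). Its level was 2.65, 4.58, 10.2, 2.24 and 1.68 CPM in UV1 to UV5 and 56.7, 68.7, 49.9, 23.5 and 76.9 CPM in untreated 1 to 5, and it fell by 12.7-fold (log2 -3.67 ± 0.51, adjusted p = 0.0202). nog, which encodes the BMP antagonist Noggin, had 10.2, 12.1, 9.38, 2.59 and 4.29 CPM against 26.5, 40.6, 23.1, 26.2 and 33.4 CPM (log2 -1.96 ± 0.37, adjusted p = 0.0417). In both genes every UV-treated library lay below every untreated one. chrd encodes Chordin, which also binds BMP ligands, and was at 18.5, 43, 100.1, 11.1 and 18 CPM in UV-treated and 172, 155, 163, 208 and 157 CPM in untreated libraries. The groups did not overlap, but UV3 held several times the level of UV4, and chrd was not called (log2 -2.16 ± 0.51, adjusted p = 0.0961). The chrd gene model overlaps another model on the opposite strand, and whether counting used strand is not stated. admp, a BMP ligand made in the organiser, showed the same order of libraries at its ends, with UV3 highest and UV4 and UV5 lowest, at 37.5, 89.2, 148, 21.3 and 19.7 against 270.4 to 319.6 CPM (adjusted p = 0.0895).

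Among the signals that passed the test, the largest decreases were those of dkkx and shh. dkkx was at 0.611, 2.68, 1.42, 0.118 and 0 CPM in UV1 to UV5, or 9, 34, 27, 2 and 0 counts, against 16.4, 17.3, 18.3, 27.1 and 20 CPM in untreated 1 to 5 (log2 -4.35 ± 0.72, adjusted p = 0.0222). Without UV2 the log2 fold change of dkkx was -5.10 (adjusted p = 0.0536). Over all fits with 1 library left out it lay between -5.10 and -4.04. shh, the Hedgehog ligand of the notochord and floor plate, was at 0.339, 0.947, 2.21, 0.177 and 0.337 CPM against 10.3, 14, 8.27, 2.49 and 25.7 CPM (log2 -3.87 ± 0.74, adjusted p = 0.0425). Untreated 4 had the least shh of its group, only slightly above UV3. The Wnt modulators sfrp2 and fzd8 fell with little spread in untreated embryos. sfrp2, a secreted Frizzled-related protein, had 9.5, 8.05, 14.5, 4.71 and 6.65 CPM against 29.2, 27.5, 29.3, 31.2 and 29.5 CPM (log2 -1.75, adjusted p = 0.0202). fzd8, a Wnt receptor of the anterior ectoderm, had 30.8, 36.4, 48.6, 21.7 and 20.7 CPM against 109.8, 95.2, 99.5, 112 and 113 CPM (log2 -1.74, adjusted p = 0.0161).

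frzb2, of the same Frizzled-related family, was lower in every UV-treated library but was not called, at 1.9, 20.3, 26, 1.3 and 1.18 CPM against 145, 169, 158, 156 and 169 CPM (log2 -3.97 ± 0.82, adjusted p = 0.0581). UV2 and UV3 lay far above the other UV-treated libraries, and frzb2 also overlaps a gene model on the opposite strand. dkk1, a Wnt antagonist of the head organiser, was at 39.6, 79.1, 64.6, 17.1 and 31.3 against 82.4 to 92.4 CPM, with UV2 just under the untreated range (adjusted p = 0.266). cer1, which encodes Cerberus, overlapped between groups at 13.1 to 25.2 against 8.6 to 52.1 CPM (adjusted p = 0.707). frzb was the only expressed organiser gene with a positive log2 fold change, at 309, 319.9, 141, 90 and 126 CPM against 106, 101, 107, 317 and 115 CPM (log2 0.40, adjusted p = 0.784). Among untreated libraries it was untreated 4 that matched the high UV-treated values of frzb. pkdcc.1, a secreted kinase gene, and loc388630 also fell, the former at 13.5 to 41.1 against 53 to 75 CPM and the latter at 4.96 to 10.9 against 25.8 to 34.6 CPM (adjusted p = 0.0374 and 0.0161).

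**Figure D2:**
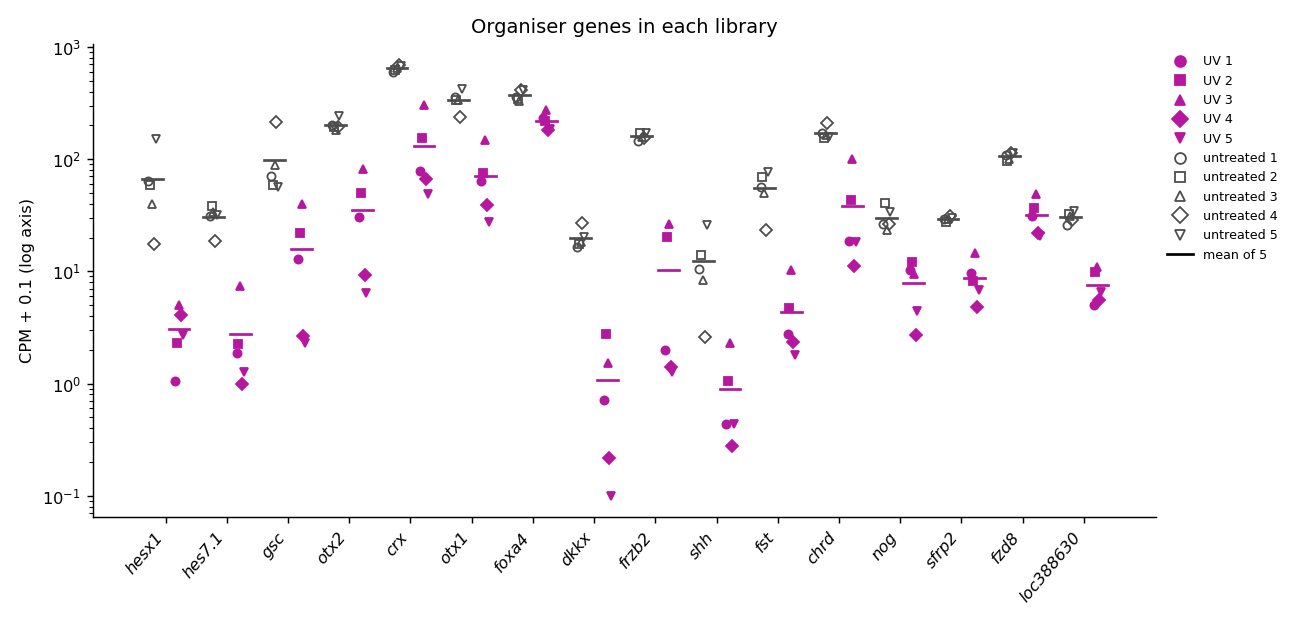
Levels of 16 organiser genes in each library, as CPM + 0.1 on a log axis. Open grey symbols are untreated 1 to 5, filled purple symbols are UV1 to UV5, and bars are group means. The groups of all 16 genes are apart, and UV3 is the highest UV-treated library for most of them.

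The count of 14 organiser genes ranged from 0 to 20 when 1 library was left out. It was 0 without UV1, UV2 or untreated 1, 2 without UV5, 3 without untreated 2 or untreated 3, 6 without UV4, 8 without untreated 5, 18 without untreated 4 and 20 without UV3. Over all fits with 1 library left out, the log2 fold change of hes7.1 lay between -4.35 (without UV3) and -3.27. That of shh lay between -4.75 (without UV3) and -3.39, and that of fst between -4.29 (without UV3) and -3.47. With the counts of UV4 and UV5 summed into 1 library the count was 2, and DESeq2 gave 23.

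Early neural genes were lower as well, with 5 of 29 expressed members called (17.2%, against 0.496% of all genes tested) and none higher. Their median log2 fold change was -0.91, and 28 of 29 had a negative value, as did 6933 of all 13299 genes tested. In 10 the groups did not overlap, with every UV-treated library lower, against 2.2% of all genes tested. fezf2, a zinc finger gene of the prospective forebrain (scaffold 4, 134561196 to 134565530, plus strand), showed the largest decrease of all genes tested. It had 0.0679, 0.0789, 0.422, 0.0589 and 0.505 CPM in UV1 to UV5, or 1, 1, 8, 1 and 6 counts, and 6.45, 7.04, 2.88, 2.54 and 44.7 CPM in untreated 1 to 5 (log2 -5.77 ± 1.02, adjusted p = 0.0342). Untreated 5 alone accounted for most fezf2 counts, and the gene had passed the filter through the untreated libraries alone. The log2 fold change of fezf2 was -4.35 without untreated 5 (adjusted p = 0.0259), and over all fits with 1 library left out it lay between -6.18 and -4.35. Of all genes tested, 6 had passed in that way.

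sox2, a pan-neural SoxB1 factor, fell from 542, 571, 638, 407 and 718 CPM in untreated 1 to 5 to 195, 255, 402, 208 and 248 CPM in UV1 to UV5 (log2 -1.13 ± 0.21, adjusted p = 0.0351). UV3 nearly met untreated 4, and the other UV-treated libraries lay well below. sox3, its close relative, overlapped between groups at 89.4 to 109 against 99.7 to 134 CPM (log2 -0.29, adjusted p = 0.265). Of the Zic genes, zinc finger factors of the neural plate and its border, zic1 and zic4 fell. zic1 had 68.8, 88.1, 184, 68.5 and 102 CPM against 244 to 312 CPM (log2 -1.42, adjusted p = 0.0328), and again UV3 was highest in its group. zic4 was at 3.26 to 9.01 against 13.3 to 20.9 CPM (log2 -1.60, adjusted p = 0.0351). zic2 overlapped between groups only through UV3 and untreated 4, at 163, 209, 242, 115 and 164 against 239.9 to 332 CPM, and was not called (adjusted p = 0.138).

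Several genes of the eye field and forebrain had large but uncertain differences. six3 was at 2.58 to 4.41 against 22.4, 19.5, 9.02, 6.82 and 101 CPM (adjusted p = 0.0661), rax at 0 to 0.949 against 2.13, 1.47, 1.12, 0.661 and 24.5 CPM (adjusted p = 0.165) and pax6 at 0.237 to 0.765 against 1.48, 2.69, 1.77, 0.407 and 12.8 CPM (adjusted p = 0.156). In each of them untreated 5 was several times above the other untreated libraries. Without untreated 4 the number of early neural genes that fell was 14, without UV3 it was 8, and without untreated 5, UV4 or any of the others it was 2, 1 and 0, respectively. DESeq2 gave 15 and the fit with UV4 and UV5 summed gave 0.

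Other genes with large decreases had roles outside these lists. Retinoid enzymes are encoded by lrat, which esterifies retinol, and by cyp26c1 and cyp26a1, which degrade retinoic acid. lrat had 0.0679, 0.789, 4.16, 1.06 and 0.673 CPM against 19.5, 28.8, 22.3, 8.6 and 47.9 CPM (log2 -4.17, adjusted p = 0.0349). cyp26c1 had 0.204, 0.71, 1.53, 0.412 and 0.168 CPM against 9.05, 9.09, 7.53, 3.56 and 21.7 CPM (log2 -4.00, adjusted p = 0.0221), although it overlaps another model on the same strand. Over all fits with 1 library left out, the log2 fold change of lrat lay between -5.25 (without UV3) and -3.81. That of cyp26c1 lay between -4.72 (without UV3) and -3.52. cyp26a1, a member of the posterior list, was abundant and also fell, at 432 to 578 against 625 to 1078 CPM (log2 -0.92, adjusted p = 0.0221).

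gjb2, a connexin gene that overlaps another model on its strand, fell and was at 59.9 to 112 CPM in UV-treated against 137 to 602 CPM in untreated libraries (log2 -2.14, adjusted p = 0.0221). cebpe, a bZIP factor gene, nedd9, a scaffold protein gene with a model on the opposite strand, and cnga4, a channel subunit gene, fell with log2 fold changes of -2.52, -2.11 and -3.26 (adjusted p = 0.0161, 0.0168 and 0.0202). In all 4 of these genes the groups did not overlap, which the rule for naming them required. Of the paraxial mesoderm and muscle genes, 2 of 18 fell (11.1%, against 0.496% of all genes tested). These were ripply2.1 and ripply2.2, which encode repressors that act during somite formation. ripply2.2 was at 28.9, 39.1, 45.5, 34.7 and 36.5 CPM in UV-treated libraries and 213, 251, 206, 42.6 and 197 CPM in untreated ones, where untreated 4 lay within the UV-treated range (log2 -2.30, adjusted p = 0.0221). ripply2.1 was at 5.91 to 12.1 against 35.2, 48.1, 48.2, 15 and 39.5 CPM, and the neighbouring paralogs may share reads. The muscle determination genes myod1 and myf5 overlapped between groups (adjusted p = 0.288 and 0.409), and the median of the 18 genes was -0.37.

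**Figure D3:**
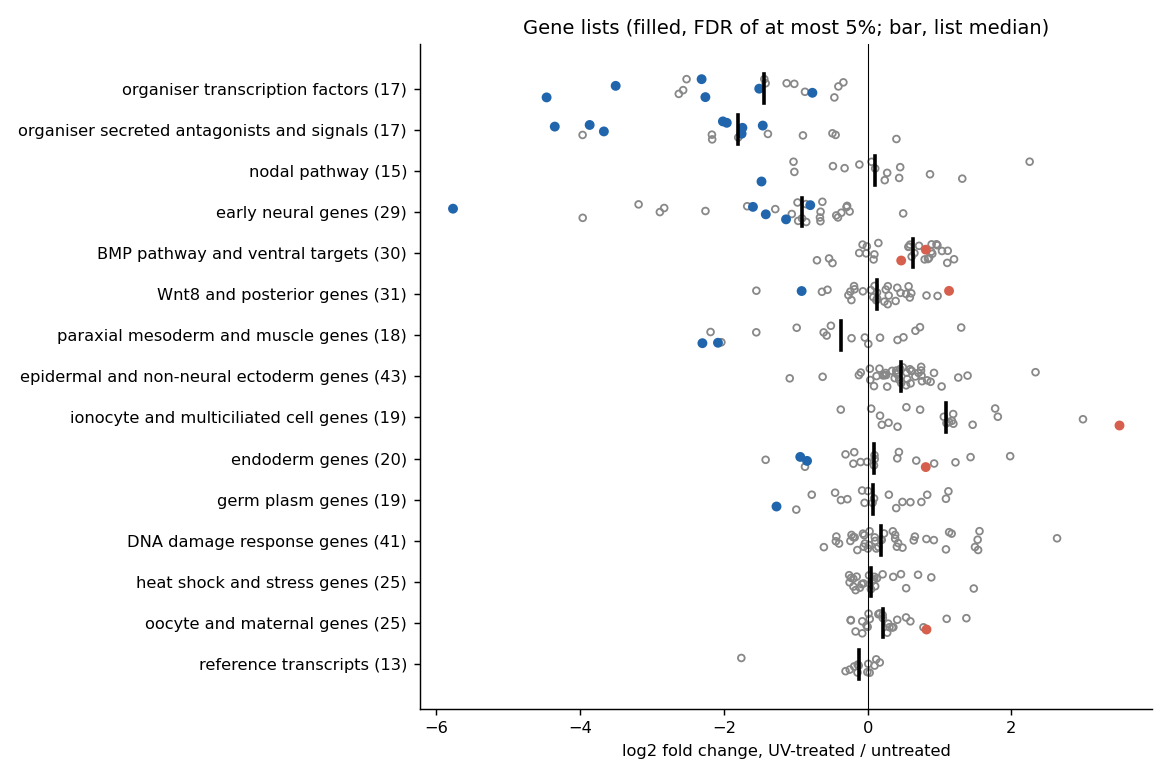
Log2 fold change of each expressed member (points) of the 15 gene lists, with the number of expressed members in parentheses. Filled points passed an FDR of 5%, blue for lower and red for higher. Black bars are list medians, which reach -1.80 for organiser antagonists and signals and 1.1 for ionocyte and multiciliated cell genes.

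Genes of the ventral side showed smaller differences in the opposite direction. Of 30 expressed BMP pathway genes and ventral targets, 2 rose (6.67%, against 0.158% of all genes tested) and none fell. A positive log2 fold change was found in 23, as in 6366 of all 13299 genes tested, and the median was 0.63. bmp4, the ventral BMP ligand, differed little, at 451, 449, 411, 449 and 406 against 423, 409, 461, 341 and 395 CPM (log2 0.09 ± 0.09, adjusted p = 0.74). The 2 that rose were vegt, a T-box gene of the vegetal region, and pnhd, which encodes a secreted protein of the marginal zone. No BMP ligand, Smad, Ventx, Msx or Id gene of the list was called, nor were szl or bambi. vegt was at 1979, 1792, 1636, 1614 and 1656 CPM against 1048, 788, 1003, 1358 and 754 CPM (log2 0.81 ± 0.15, adjusted p = 0.0372), and untreated 4 was the highest of its group. pnhd was at 375 to 437 against 262 to 313 CPM (log2 0.47, adjusted p = 0.0222). vegt also stands in the endoderm and the oocyte lists, where it is the only gene that rose.

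The ventral homeobox genes of the Ventx family and genes of BMP feedback differed in which UV-treated libraries were high. ventx1.1 was at 933, 851, 476, 1273 and 1165 CPM in UV1 to UV5 and 363, 422, 488, 466 and 657 CPM in untreated 1 to 5 (log2 0.97 ± 0.24, adjusted p = 0.111). UV1, UV2, UV4 and UV5 were above every untreated library and UV3 lay inside the untreated range, and the paralogs ventx1.1 and ventx1.2 may share reads. ventx2.1 was at 1064, 796, 601, 1062 and 999.7 against 563, 579.7, 586, 588 and 716 CPM (adjusted p = 0.127) and ventx2.2 at 955, 726, 617, 899 and 934 against 455, 486, 549, 500.4 and 798 CPM (adjusted p = 0.179), both highest in UV1. szl, which encodes Sizzled, a ventral inhibitor of Chordin breakdown, was at 167, 92.1, 56.7, 365 and 332 against 70.7, 77.4, 95.4, 89.4 and 107 CPM (log2 1.2 ± 0.43, adjusted p = 0.266). UV4 and UV5 were far above every untreated library, while UV3 was below all of them. bambi, a BMP and activin pseudoreceptor gene, was at 1112, 928, 858, 1694 and 1639 against 645, 635, 791, 620.5 and 1103 CPM (adjusted p = 0.207), and msx1 at 191, 147, 126, 354 and 366 against 87.8, 116, 115, 45.6 and 183 CPM (adjusted p = 0.244). Of smad7, an inhibitory Smad gene, every UV-treated library was higher, at 50.8 to 103 against 30.5 to 50.5 CPM. That held for 3 genes of the list and 1.12% of all genes tested, and smad7 was not called (adjusted p = 0.127). Not all genes of the list leaned up, as 7 of the 30 had a negative log2 fold change. Among them was smad6, also an inhibitory Smad gene, at 57.2 to 123 against 65.2 to 216 CPM (log2 -0.54). Others were bmp2 (log2 -0.70), id3 (log2 -0.12) and ventx3.1 (log2 -0.07), and none of these was called.

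wnt8a, the Wnt ligand of the ventral and lateral marginal zone, was the clearest increase among patterning genes (scaffold 3, 59370630 to 59376205, minus strand). It had 1023, 919.7, 630.4, 570.3 and 614 CPM in UV1 to UV5 and 343, 315, 359, 416 and 279 CPM in untreated 1 to 5 (log2 1.13 ± 0.18, adjusted p = 0.0221). All UV-treated libraries were above all untreated ones, and here UV1 and UV2, not UV4 and UV5, were highest. The gene t, which encodes Brachyury, was also without overlap at 852 to 1112 against 619 to 835 CPM but was not called (log2 0.46, adjusted p = 0.0661). Of the 31 expressed Wnt8 and posterior genes, 1 rose (wnt8a), 1 fell (cyp26a1) and the median was 0.13. Each is 3.23% of the list, against 0.158% of all genes tested for increases and 0.496% for decreases. cdx4 and evx1, posterior homeobox genes, overlapped between groups (adjusted p = 0.751 and 0.376).

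Of 43 epidermal and non-neural ectoderm genes, 39 had a positive log2 fold change, against 6366 of all 13299 genes tested. Their median was 0.47, but none was called. Among the transcription factor genes of this tissue were tfap2a, at 1557, 1453, 1535, 1768 and 1810.0 against 1238, 1049, 1304, 952 and 1332 CPM, and grhl3, at 1039.9, 979, 761, 1557 and 1639 against 797, 542, 750.0, 551 and 897 CPM. tfap2a did not overlap between groups (log2 0.47, adjusted p = 0.0888), and grhl3 did (adjusted p = 0.17). tp63, a transcription factor gene of basal epidermis, was at 4.75, 3, 2.74, 26.5 and 27.8 CPM in UV1 to UV5 and 3.02, 2.5, 2.23, 0.865 and 4.23 CPM in untreated 1 to 5 (adjusted p = 0.195). UV4 and UV5 were far above every other library of either group. gata2, sox3 and msx1 each overlap a gene model on the opposite strand. The groups of gata2 overlapped, at 1284, 1201, 1149.6, 2149 and 2199.6 against 1045, 949, 1011, 557 and 1742 CPM (adjusted p = 0.417).

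Ionocytes and multiciliated cells are the specialised cells of the larval skin. Of the 19 expressed genes of their list, 18 had a positive log2 fold change, against 6366 of all 13299 genes tested. The median of the list was 1.1. The 1 gene called (5.26%, against 0.158% of all genes tested) was atp6v1b1, a subunit of the proton pump of acid-secreting ionocytes (scaffold 7, 3556176 to 3579529, minus strand). It was at 6.18, 4.73, 2.06, 8.95 and 7.99 CPM in UV1 to UV5 and 0.828, 0.96, 0, 0.254 and 0.494 CPM in untreated 1 to 5, from 0 to 15 counts per untreated library (log2 3.5 ± 0.61, adjusted p = 0.0315). foxi1, the ionocyte regulator, was at 70, 139, 39.9, 145 and 112 against 51.1, 40.6, 42.4, 34.7 and 52.5 CPM, and foxj1, the regulator of motile cilia, at 65, 150.5, 61.7, 253 and 215 against 57.2, 50.3, 45.4, 21.7 and 96 CPM. Both overlapped between groups and were not called (adjusted p = 0.122 and 0.199). High values were those of UV2, UV4 and UV5.

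The remaining named increases were of genes with varied roles. lonrf3, a RING finger gene, was at 4.62, 5.29, 7.38, 8.07 and 5.22 against 1.24, 1.09, 1.67, 0.661 and 2.19 CPM (log2 2.17, adjusted p = 0.0202), and slit3, a guidance ligand gene, at 1.21 to 2.02 against 0.353 to 0.64 CPM (log2 1.79, adjusted p = 0.0221). Log2 increases of 1.16 to 1.52 were those of vash2, sertad4, nr1d2, a nuclear receptor gene, and rap2b, a small GTPase gene. Increases below 1 on the log2 scale were those of c8orf42, lims1, an adhesion adaptor gene, slc17a9, a nucleotide transporter gene, sp1, paqr5, a membrane progestin receptor gene, and rnd1. In all of these genes every UV-treated library was above every untreated one, as the rule for naming them required.

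**Figure D4:**
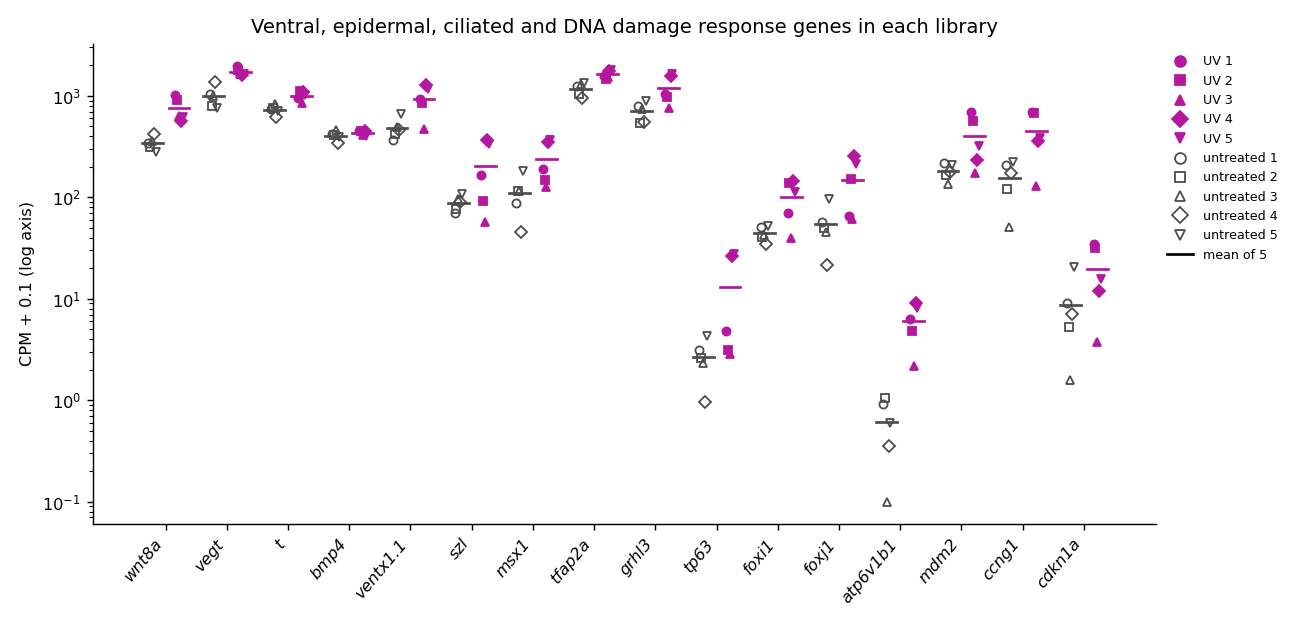
Levels of 16 ventral, posterior, epidermal, ciliated cell and DNA damage response genes in each library, as CPM + 0.1 on a log axis, with bars at group means. UV4 and UV5 are highest for szl, msx1 and tp63, whereas UV1 and UV2 are highest for wnt8a, mdm2, ccng1 and cdkn1a.

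UV light damages DNA, and cells respond to such damage by inducing cell cycle and repair genes. None of 41 expressed DNA damage response genes was called, and their median was 0.19. Some were high in UV1 and UV2 in particular. mdm2, a ubiquitin ligase gene, was at 700.1, 564, 174, 231 and 322 CPM in UV1 to UV5 and 219, 167, 135, 178 and 207 CPM in untreated 1 to 5 (log2 1.13, adjusted p = 0.179). ccng1, a cyclin G gene, was at 691, 684, 128, 359 and 388 against 208, 121, 51, 174 and 221 CPM (adjusted p = 0.18), and cdkn1a, the p21 inhibitor gene, at 34.4, 31.9, 3.64, 11.8 and 15.6 against 8.99, 5.12, 1.49, 6.97 and 20.5 CPM (adjusted p = 0.506). In UV3 each of these 3 genes was within the untreated range. gadd45b, of the same list, did not overlap between groups but was at 0.589 to 5.84 against 0.186 to 0.473 CPM, had passed the filter through the UV-treated libraries alone, and was not called (adjusted p = 0.107). Whether this spread of damage response genes among UV-treated libraries has a part in the other differences was not tested.

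The UV-treated libraries differed in how far the organiser genes lay below the untreated libraries. No label separates UV1 to UV3 from UV4 and UV5, so values are given per library, without a test and without averages over chosen libraries. For the 34 organiser genes the median log2 difference from the mean of the untreated libraries was -1.63 in UV1, -1.31 in UV2, -1.09 in UV3, -2.37 in UV4 and -2.16 in UV5. Each untreated library, set against the other 4, lay between -0.06 and 0.12. UV4 and UV5 thus lay farthest below the untreated libraries and UV3 nearest to them, and the order of the 5 libraries was the same under each alternative run (another prior count, other size factors, more abundant genes only, or leaving out an untreated library). In 24 of the 34 genes (70.6%) UV4 and UV5 were both below UV1, UV2 and UV3, against 23.4% of all genes tested, and in none were both above. Lists with no dorsal role also showed this split, in 13 of 25 oocyte and maternal genes (52.0%), 9 of 19 germ plasm genes (47.4%) and 5 of 13 reference transcripts (38.5%). It was rarer in other lists, such as 7 of 41 DNA damage response genes and 4 of 20 endoderm genes. Whether the split in organiser genes is separate from such differences was not tested. UV4 and UV5 were also the closest pair of libraries. Whether they are independent samples was not tested, so here and below their agreement may not be that of 2 replicates. UV3 was the highest UV-treated library in 23 of the 34. chrd and gsc illustrate the spread, with UV3 at 58.5% and 40.3% of the untreated mean and UV4 at 6.50% and 2.59%.

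Early neural genes did not follow that order. Their median differences were -1.22, -1.19, -0.40, -1.23 and -1.02 in UV1 to UV5, and only UV3 stood apart, near untreated 4 at -0.42. UV3 was the highest UV-treated library in 19 of the 29 genes. Both UV4 and UV5 were below the others in 7 of 29 (24.1%), which is close to the 23.4% of all genes.

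Ventral and epidermal genes stood in nearly the reverse order of the organiser genes. For the BMP pathway genes and ventral targets the medians were 0.49, 0.36, 0.02, 1.03 and 1.00 in UV1 to UV5, with untreated 5 at 0.60 and the other untreated libraries between -0.14 and 0.02. For epidermal genes they were 0.23, 0.21, 0.11, 0.85 and 0.93, with untreated 4 at -0.64 and untreated 5 at 0.62. UV4 and UV5 were both above the other 3 in 19 of 30 BMP genes (63.3%) and 35 of 43 epidermal genes (81.4%), against 24.5% of all genes tested. For ionocyte and multiciliated cell genes UV2 joined them, with medians of 0.40, 1.49, 0.13, 1.73 and 1.59, but untreated 5 reached 1.25. The untreated libraries alone therefore spanned much of the range of the epidermal and ciliated cell genes, which was not so for organiser genes. The oocyte list had medians of 0.35, 0.27, 0.39, 0.11 and 0.15 in UV1 to UV5. This list differed among the untreated libraries too, at 0.61 in untreated 4 and -0.67 in untreated 5, and its part in these differences was not tested.

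**Figure D5:**
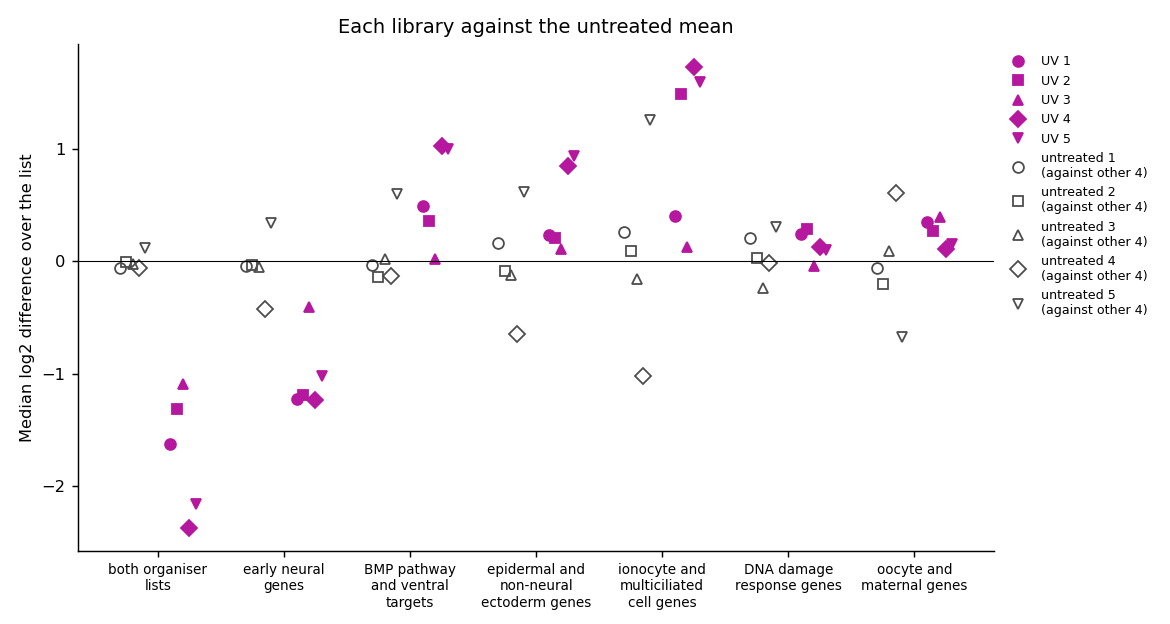
Median log2 difference of each library over the genes of 7 lists. UV-treated libraries (filled) are set against the mean of the 5 untreated libraries and each untreated library (open) against the other 4. For the organiser genes UV1 to UV5 lie between -2.37 and -1.09 and untreated libraries between -0.06 and 0.12.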

How the data were processed

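Poly(A) RNA of 10 whole embryos per library was sequenced as read pairs of 50 bases. The deposited counts are whole numbers of reads per gene, not normalised, which the authors made by aligning reads to their gene models with TopHat2 and counting with HTSeq. The submitters' processing notes list CASAVA 1.8.2, TopHat2 2.1.1 and 2.0.10, HTSeq and DESeq2. The strand setting is not given in the sources used here. The deposited gene models, whose values are of another kind (other: positions on scaffolds of assembly v7.1), gave gene positions and overlaps only.

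Columns were assigned to samples by title. The counts of the 10 libraries were fitted by edgeR 4.0.16 under R 4.3.3 (robust quasi-likelihood fit, TMM, condition as the only term), after a filter of 10 counts in 5 libraries, and p-values were adjusted over 13299 genes by the Benjamini-Hochberg method. This differs from the authors' use of DESeq2, which was run as an alternative (1.42.0). CPM values use TMM effective library sizes, and log2 CPM a prior count of 2. SE is the absolute log2 fold change divided by the square root of F. The fit was tested on simulated data for this comparison, with 12983 genes in the fit. Of genes changed 4-fold that passed the filter on the simulated counts, it called 78.3% of decreases and 96% of increases at an FDR of 5%. Of such genes changed 2-fold it called 44% and 39.6%, with 10 false calls. Changed genes that failed the filter were left out, so shares over all changed genes can be lower. At the stricter threshold the 4-fold shares were 65.2% and 88%. Changed genes had a mean of at least 1 CPM and the same simulated fold in every UV-treated library. The real UV-treated libraries differed in strength, so these shares may not hold for them. The reads carry no molecular identifiers, so counts include PCR copies.

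Genes were named singly if they were members of the 15 lists past an FDR of 5%, were among a fixed set of dorso-ventral markers, or were among the 15 largest decreases or increases with a gene name, a mean of at least 1 CPM and no overlap between groups. Further list members given with values (such as rax, smad7 or foxj1) were chosen after their values were seen. The members, lists and marker set were chosen with earlier results of these data known. Of the 87 genes called, 14 have no gene name and are not reported singly, and some genes under the rule are not reported here. Of the 28206 genes, 14505 have a name in the deposited models, and 81 of the 83 genes under the rule matched a RefSeq symbol or synonym. Alternatives were other size factors, filters and tests, all 15 libraries in the fit, the replicate number as a block, UV4 and UV5 summed, and each library left out in turn.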

Additional observations from a re-analysis of the deposited data

Results flagged for a closer look

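In 9 of 166 groups of 5 libraries of a gene under the naming rule, 1 library stood far from the others. That share is close to the 1 in 20 or so that chance gives. Untreated 4 was low for hes7.1 (18.7 CPM, others 31.3 to 38.0), ripply2.2 (42.6 CPM, others 197 to 251) and ripply2.1 (15.0 CPM, others 35.2 to 48.2). Untreated 5 was high for admp (320.0 CPM, others 270.0 to 282) and ventx3.2 (105 CPM, others 65.3 to 72.1) and low for dazl (41.7 CPM, others 65.7 to 77.6). Untreated 2 was low for slc17a9 (17.3 CPM, others 20.9 to 21.7). Among the UV-treated libraries, UV1 was low for myod1 (1.49 CPM, others 4.30 to 6.08) and UV3 for vash2 (4.22 CPM, others 7.5 to 9.13). Of the 9, 6 lay in untreated 4 or untreated 5, the pair of untreated libraries farthest apart, which was not tested.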

How the results depend on the processing

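Counts of calls depended on the test and on single libraries, and directions did not for the 49 genes under the naming rule that rose or fell. Except in ripply2.2, the groups of these 49 genes did not overlap, which left little room for a change of sign. Over 1494 pairs of a gene under the naming rule, called or not, and an alternative, 971 kept direction and side of the threshold, 481 lost the call, 36 gained it and 6 changed sign. At a 2-fold change and an FDR of 1%, where the main result was 0 lower and 0 higher, the numbers were 11 and 1 without a filter, 117 and 33 with DESeq2 and 9 and 2 with all 15 libraries. At an FDR of 5%, against 66 lower and 21 higher, DESeq2 gave 317 and 175, and all 87 genes were among its calls. All 15 libraries gave 63 and 11, with 58 of the 87 genes shared, and UV4 and UV5 summed gave 5 and 0. Testing against a 1.5-fold change (glmTreat) gave 0 and 0, with 480 genes at an unadjusted p under 0.05. For the 14 organiser genes and the 5 early neural genes that fell, DESeq2 gave 23 and 15, glmTreat 0 and 0, and the summed libraries 2 and 0.

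Leaving out 1 library gave 0 to 387 lower and 0 to 170 higher genes at an FDR of 5%, 0 to 42 and 0 to 6 at the stricter threshold, 0 to 20 organiser genes and 0 to 14 early neural genes. The highest counts came without untreated 4, except for organiser genes (without UV3). The log2 fold change of sia1 ranged from -0.71 (without untreated 2) to 0.56 (without untreated 4, where it changed sign). The log2 fold change of msgn1, at -0.04 in the main fit, ranged from -0.26 (without untreated 4) to 0.13, and was positive with the replicate block (0.00848) and without UV1, UV3, untreated 2 or untreated 5 (0.0453, 0.1316, 0.1238 and 0.1314). With the replicate number as a block, 44 genes fell and 10 rose at an FDR of 5% and 0 passed the stricter threshold, with 12 organiser and 6 early neural genes called. The main fit did not take the numbers as a pairing. Deviations of same-numbered libraries correlated at 0.22, 0.28, 0.58, -0.28 and 0.50 for numbers 1 to 5. UV2, UV3 and UV5 correlated best with the untreated library of their own number, but UV1 with untreated 4 (0.42) and UV4 with untreated 5 (0.44). Whether same-numbered libraries share a clutch was not tested. Scaling moved the median over all genes by at most 0.02. Genes at a few counts, such as fezf2 and dkkx in UV-treated libraries, are limited by depth.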

Other observations

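Endoderm genes showed no common direction, with a median of 0.09. Of 20, 2 were lower (10%, against 0.496% of all genes tested) and 1 higher (5%, against 0.158%). Those that fell were foxa1, a forkhead gene, at 60.1 to 81.5 against 85.9 to 178 CPM, and darmin, which encodes an endodermal peptidase, at 299.9 to 434 against 496 to 752 CPM (edgeR adjusted p = 0.0487 and 0.0202). The early endoderm genes mixer and mix1 had high values in UV-treated embryos and in untreated 4. mixer was at 1039.5, 756, 528, 654 and 560.0 CPM in UV1 to UV5 and 339, 219, 277, 868 and 159 CPM in untreated 1 to 5, and mix1 at 541, 324, 286, 195 and 199.7 against 89.2, 53.1, 80, 287 and 62.8 CPM, and neither was called (adjusted p = 0.368 and 0.223). The Nodal ligand gene nodal2 was at 45.8, 28.8, 30.7, 9.77 and 9.25 against 5.8, 1.09, 4.28, 12.8 and 1.83 CPM (adjusted p = 0.166). Of 15 Nodal pathway genes 1 fell (6.67%, against 0.496% of all genes tested), the co-receptor gene tdgf1p2. Its level was 4.48 to 9.06 against 9.56 to 24.8 CPM (adjusted p = 0.0446). mixer, mix1 and nodal2 were each lower in UV4 and UV5 than in UV1.

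Germ plasm lies at the vegetal pole that was irradiated. Of its 19 expressed genes 1 fell (5.26%, against 0.496% of all genes tested), and the median was 0.07. That gene was ddx25, an RNA helicase gene, at 28.9, 33.6, 22, 29.5 and 23.5 CPM against 60.7, 87.8, 66.2, 84.3 and 33.7 CPM (edgeR adjusted p = 0.0374). dazl, a germ cell RNA-binding protein gene, was at 31.4, 46.5, 36.2, 25.1 and 24.9 against 65.9, 75.5, 77.6, 65.7 and 41.8 CPM and was not called (adjusted p = 0.0646). Of 25 heat shock and stress genes none was called (median 0.05). Of 25 oocyte and maternal genes 1 rose, vegt (4%, against 0.158% of all genes tested, median 0.21). Of 13 reference transcripts none was called (median -0.12). gapdh, often used as a reference, ranged from 20.8 to 368 CPM in untreated and from 27 to 67.5 CPM in UV-treated libraries (adjusted p = 0.232).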
